A study of Mus musculus with 4 samples.

Results

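The genes described here are 8 of the 18383 genes in the deposited count table: Vhl, Pbrm1, Bap1, Tsc1, Tsc2, Nf2, Flcn and Mtor. They were chosen by name, as genes whose loss is linked to kidney tumours or that act in the mTOR pathway, and all 8 have a row. Mtor is the kinase itself and the target of the brakes. RNA was sequenced from tubular epithelial cells taken as primary cells out of the renal cortex of C57BL/6 mice aged 8 weeks. Per the labels, KMS cells came from SETD2fl/fl MYCfl/fl KspCre/+ mice (2 libraries) and KM cells from MYCfl/fl KspCre/+ mice (2 libraries), so both groups carry the floxed MYC alleles and the Cre transgene. KspCre places Cre recombinase under the promoter of kidney-specific cadherin, which is active in tubular epithelium. SETD2 is the methyltransferase that trimethylates lysine 36 of histone H3, and the series asks how transcripts of MYC+ tubular cells differ once it is lost. The design text of the series names a different reference, SETD2FL/FL KSPCRE/+, and the sample labels were followed here. The labels do not name the animals behind the libraries. By the Xist and Y-linked counts described below, the replicates of each group differed in sex, so they did not come from the same animal. The spread within a group therefore includes sex, and p-values cover only the spread seen among the libraries.

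In human clear cell renal carcinoma, VHL, PBRM1, BAP1 and SETD2 lie on the short arm of chromosome 3 and are often lost together. VHL marks HIF alpha proteins for destruction, PBRM1 is a subunit of the PBAF chromatin remodeller, and BAP1 removes ubiquitin from histone H2A. TSC1 and TSC2 form the complex that switches off RHEB, the small GTPase that activates mTOR complex 1, and their loss gives renal angiomyolipomas and cysts. FLCN, the Birt-Hogg-Dubé protein, acts at the lysosome on the Rag GTPases, which bring mTOR complex 1 its amino acid signal. NF2 encodes merlin, which links cell contacts to the Hippo kinases. In the mouse these genes are spread over the genome (GRCm38, GENCODE M21). Vhl lies on chromosome 6 (113623959 to 113631633, plus strand), Tsc1 on chromosome 2 (28641228 to 28691167, plus), Tsc2 on chromosome 17 (24595816 to 24632630, minus) and Mtor on chromosome 4 (148448611 to 148557683, plus). Nf2 (4765845 to 4849536) and Flcn (59791408 to 59810016) are on the minus strand of chromosome 11. Pbrm1 (31019138 to 31121592) and Bap1 (31251450 to 31259944) are neighbours on the plus strand of chromosome 14.

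The promoter windows of Pbrm1 and Bap1 are printed because they are the only members' windows that hold CACGTG, the E-box, the core sequence that MYC and its partner MAX recognise, in a study where both genotypes carry a MYC allele. Windows run from 250 bases before to 50 bases after the start that RefSeq gives (GRCm38.p6), and the capitals mark the E-box, which reads the same on both strands.
Pbrm1, chr14:31018888-31019187, plus strand: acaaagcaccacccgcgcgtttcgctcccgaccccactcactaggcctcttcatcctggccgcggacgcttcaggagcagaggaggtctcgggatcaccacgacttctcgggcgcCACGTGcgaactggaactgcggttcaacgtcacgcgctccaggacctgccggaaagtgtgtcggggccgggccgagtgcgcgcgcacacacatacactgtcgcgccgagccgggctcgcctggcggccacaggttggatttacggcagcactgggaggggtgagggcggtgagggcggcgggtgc
Bap1, chr14:31251239-31251538, plus strand: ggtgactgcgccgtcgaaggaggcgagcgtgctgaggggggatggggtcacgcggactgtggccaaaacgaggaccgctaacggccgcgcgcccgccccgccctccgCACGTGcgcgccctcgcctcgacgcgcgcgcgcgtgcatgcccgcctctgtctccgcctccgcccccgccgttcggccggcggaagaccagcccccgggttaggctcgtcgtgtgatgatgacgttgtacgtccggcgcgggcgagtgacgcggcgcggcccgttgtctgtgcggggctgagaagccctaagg
The E-box begins 135 bases before the RefSeq start of Pbrm1 and 143 bases before that of Bap1. Of the 8 genes, 2 have an E-box in a window (25.0%), beside 7.15% of 32851 windows of all genes and 11.2% of the 11577 genes of the count table that have a window. E-boxes hold a CpG, and windows differ in how many they have: the median was 22 in the 9 windows of the 8 genes, with 35 for Pbrm1 and 50 for Bap1, against 7 over all windows. The match is of letters only, and binding was not measured in the files used here. Both windows also hold the start of a gene on the opposite strand. Gnl3, which encodes the nucleolar protein nucleostemin, starts 14 bases from Pbrm1 and overlaps it by 15 bases, so that the Pbrm1 E-box falls inside the annotated Gnl3 gene. Phf7, a gene of a PHD finger protein, starts 133 bases from the GENCODE start of Bap1, which is not the RefSeq start used for the window. The Bap1 E-box lies between the starts of Phf7 and Bap1, 29 bases from that of Phf7.

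Total counts were 9780050 and 8886496 in the KMS libraries and 18639040 and 14955148 in the KM libraries. Member counts ran from 120 to 1629 per library, which gives a counting error of 2.48% to 9.13% (Poisson, for counting error only). By Xist and Y-linked counts, replicate 1 was female and replicate 2 male in both genotypes, so libraries of equal number are of like sex, although nothing in the labels pairs them. Tubular markers were abundant in every library, and markers of other kidney cells were present too. The summed CPM (counts scaled to a library total of 1e+06) of 9 proximal tubule markers was 19444 and 16061 in KMS and 9477 and 6316 in KM. Another such marker, Kap, is left out of that sum because its own values ranged widely, with 56.7 and 14945 CPM in KMS and 1482 and 829 CPM in KM. For 8 loop of Henle and distal tubule markers the sum was 6235 and 3787 in KMS and 3511 and 899 in KM, lowest in KM replicate 2. For 8 collecting duct markers it was 493 and 304 in KMS and 553 and 358 in KM. For 7 urothelial markers it was 86.0 and 52.6 in KMS and 80.0 and 215 in KM. The 6 urothelial markers tested all had a log2 difference below 0. The sum of 6 podocyte markers was 2505 and 2319 in KMS and 2102 and 1058 in KM, that of 8 endothelial markers 1108 and 668 in KMS and 1072 and 871 in KM, and that of 8 mesenchymal markers 104 and 97.7 in KMS and 165 and 211 in KM. For 10 genes of injured tubules the summed CPM was 3208 and 1209 in KMS and 4172 and 9724 in KM, highest in KM replicate 2. Spp1 alone made up most of each sum, with 2762 and 987 CPM in KMS and 3545 and 8494 CPM in KM. Each of the 10 was lower in both KMS libraries than in either KM library, beside 31.3% of all genes. Their median log2 difference was -2.70. Between the female libraries alone it was -1.66, so the difference was not confined to KM replicate 2. Fewer cells of a type and less RNA per cell cannot be told apart in such bulk samples, and the part of cell makeup in the values below was not tested. Setd2 had 58.3 and 49.2 CPM in KMS and 54.3 and 58.1 CPM in KM, a count over the whole gene that does not check the deletion. Myc had 6.10 and 2.19 CPM in KMS and 5.29 and 6.98 CPM in KM.

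None of the 8 genes passed the test between KMS and KM (edgeR quasi-likelihood, adjusted p from 0.106 to 0.993 over 15002 genes), beside 0.0333% of all genes tested. Nor did any pass with DESeq2 (lowest adjusted p = 0.0718), which called 11.8% of all genes, or with limma-voom, which called 0.00667%. At an unadjusted p under 0.05, edgeR counted 3 members higher (Flcn, Bap1 and Mtor) and 1 lower (Pbrm1), beside 12.2% and 14.1% of all genes. By value, Flcn, Mtor, Bap1, Nf2, Tsc1 and Vhl were higher in both KMS libraries than in either KM library, Pbrm1 was lower in both, and Tsc2 overlapped. These are 6 and 1 of 8 members, beside 29.0% and 31.3% of all genes. For genes whose groups do not overlap, both ratios between libraries of like sex must have the same sign. The same 6 above 0 and 1 below 0 in both ratios (35.2% and 36.8% of all genes) therefore add nothing further. The fitted log2 difference was above 0 for 7 of 8, beside 49.3%, and its median was 0.39, beside -0.01 over all genes tested. A missed threshold does not show that levels were equal, and the interval of each fold is given below. No test was made of these shares, since the 8 genes were chosen with results of these data known. In the authors' deposited table the adjusted p of the 8 ran from 0.382 to 1.0, where 2.22% of 18383 genes were under 0.05.

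**Figure D1:**
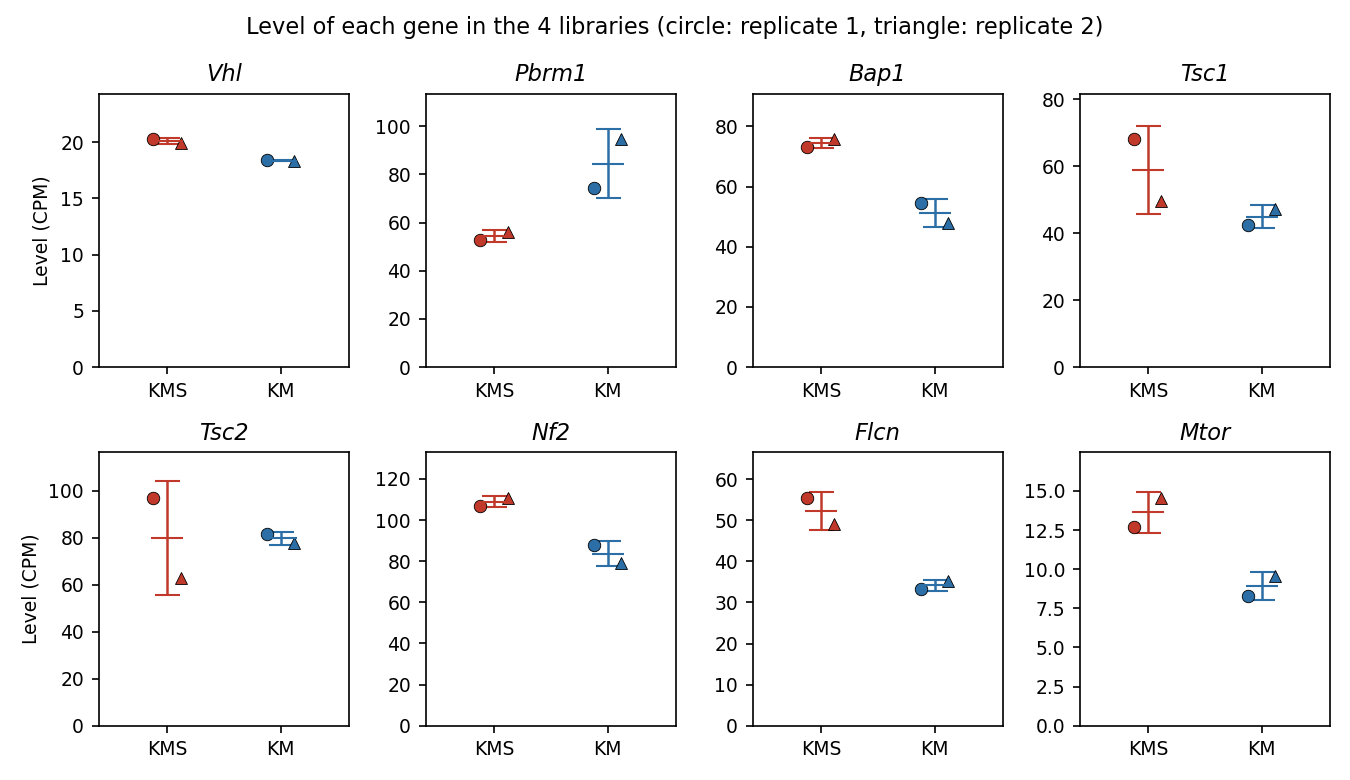
Level of each gene in CPM (y axis, from 0) in KMS and KM libraries; circles are replicate 1, triangles replicate 2, and bars show the mean and SD of 2 libraries. The KMS points lie above both KM points for 6 genes, below both for Pbrm1, and on both sides of them for Tsc2.

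Vhl showed the tightest replicates. It had 20.3 and 19.9 CPM in KMS, from 196 and 164 counts, and 18.4 and 18.3 CPM in KM, from 341 and 299 counts. The groups did not overlap, although the counting error of the KMS values alone was 7.14% and 7.81%. The fold was 1.09 with a 95% interval of 0.792 to 1.51 (log2 difference 0.13 ± 0.19 SE, edgeR adjusted p = 0.698). Of the other 4 subunits of the VHL ubiquitin ligase, 0 passed. Tceb2, which encodes elongin B, the adaptor subunit, had 103 and 121 CPM in KMS and 57.0 and 49.7 CPM in KM (log2 difference 1.07 ± 0.19 SE, edgeR adjusted p = 0.0755), and DESeq2 called it higher in KMS (adjusted p = 2.94e-04). Rbx1, the RING subunit, had 55.0 and 59.8 CPM in KMS and 43.8 and 39.4 CPM in KM.

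VHL acts on HIF alpha at the protein level, and through it on the targets of HIF. The next list holds the genes of the HIF factors, of their hydroxylases and of HIF targets. Of 18 such genes 0 passed with edgeR, and the median log2 difference was 0.26. At an unadjusted p under 0.05, 4 of the 18 were higher in KMS and 1 was lower, beside 12.2% and 14.1% of all genes. Car9, a carbonic anhydrase gene that HIF induces strongly, had 3.72 and 7.29 CPM in KMS and 1.46 and 1.16 CPM in KM (log2 difference 2.05 ± 0.47 SE, edgeR adjusted p = 0.0922). The 1 lower gene, named after its values were seen, was Ankrd37, an ankyrin repeat gene that HIF also induces. It had 0.621 and 0.121 CPM in KMS and 1.94 and 4.04 CPM in KM (log2 difference -2.92 ± 0.76 SE, edgeR adjusted p = 0.101). Among the listed targets of HIF, DESeq2 called Car9 (adjusted p = 0.0133) and Car12 (adjusted p = 0.0259) higher in KMS. It called Ankrd37 lower (adjusted p = 0.0327), from only 6 and 1 counts in KMS and 36 and 66 in KM. Of the 18 genes, 9 were higher in both KMS libraries than in either KM library, and 4 were lower in both. Over all genes these shares were 29.0% and 31.3%. Egln2, a HIF prolyl hydroxylase gene, had 55.9 and 60.3 CPM in KMS and 38.8 and 31.4 CPM in KM. The HIF alpha genes, chosen after their values were seen, went the other way by value. Hif1a had 87.3 and 69.4 CPM in KMS and 91.4 and 124 CPM in KM, and Epas1, which encodes HIF-2 alpha, had 187 and 128 CPM in KMS and 236 and 212 CPM in KM. The groups did not overlap for either gene, and neither passed.

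The chromosome 14 neighbours Pbrm1 and Bap1 differed in opposite directions. Pbrm1 had 509 and 462 counts in KMS and 1377 and 1546 in KM, which is 52.6 and 56.1 CPM in KMS and 74.3 and 94.7 CPM in KM. Both KMS libraries were below both KM libraries, and KM replicate 2 was the highest. The fold was 0.644 with a 95% interval of 0.467 to 0.888 (log2 difference -0.64 ± 0.19 SE, edgeR adjusted p = 0.115). Bap1 had 709 and 624 counts in KMS and 1009 and 783 in KM, which is 73.3 and 75.8 CPM in KMS and 54.5 and 47.9 CPM in KM. Here both KMS libraries were above both KM libraries, with a fold of 1.46 and an interval of 1.10 to 1.93 (log2 difference 0.54 ± 0.17 SE, edgeR adjusted p = 0.118).

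The count ratio of Bap1 to Pbrm1 within a library does not depend on any scaling. It was 1.39 and 1.35 in KMS and 0.733 and 0.506 in KM, so Bap1 had more counts than Pbrm1 in both KMS libraries and fewer in both KM libraries. This pair was picked after the values were seen, and 2 against 2 libraries cannot give an exact two-sided permutation p under 0.333. Pbrm1 made up 10.8% and 12.8% of the counts of the 8 genes in KMS and 18.5% and 23.1% in KM. Without KM replicate 2, the library with the highest sum of injury genes, the log2 difference was -0.45 for Pbrm1 and 0.46 for Bap1. Between the female and between the male libraries it was -0.49 and -0.75 for Pbrm1, and 0.43 and 0.66 for Bap1.

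**Figure D2:**
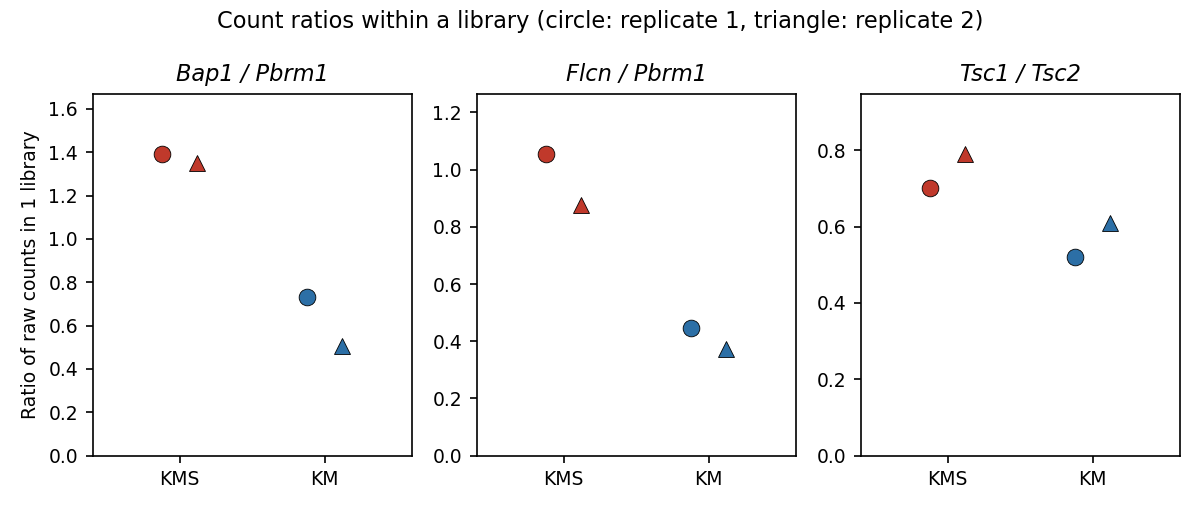
Ratio of the raw counts of 2 genes within each library (y axis, from 0, no unit) for Bap1 to Pbrm1, Flcn to Pbrm1 and Tsc1 to Tsc2; circles are replicate 1, triangles replicate 2. Each ratio is higher in both KMS libraries than in both KM libraries, and Bap1 to Pbrm1 is above 1 in KMS only. The groups also did not overlap for most other pairs of members, which are not shown.

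The partners on the opposite strand were set beside these genes. Gnl3 had 11.6 and 14.1 CPM in KMS and 24.5 and 36.4 CPM in KM (log2 difference -1.24 ± 0.27 SE, edgeR adjusted p = 0.0873), the direction of Pbrm1. Phf7 had 12.3 and 16.3 CPM in KMS and 9.72 and 8.39 CPM in KM (log2 difference 0.66 ± 0.27 SE, edgeR adjusted p = 0.186), the direction of Bap1. Smim4, a gene of a small membrane protein that lies across introns of Pbrm1, went against it, with 14.1 and 19.9 CPM in KMS and 9.61 and 7.72 CPM in KM (log2 difference 0.97 ± 0.28 SE, edgeR adjusted p = 0.111). The only exonic overlap of Pbrm1 with an annotated gene is the 15 bases shared with Gnl3, although Smim4 and 2 processed pseudogenes overlap its introns. Bap1 overlaps no annotated gene. The sources used here do not say whether the authors' counting used strand.

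Among the other 17 subunits of PBAF and related SWI/SNF remodellers, 0 passed, and the median log2 difference was -0.25. Of the 17, 14 were below 0, beside 7608 of all 15002 genes tested. For 12 of the 17 both KMS libraries were below both KM libraries, beside 31.3% of all genes. Smarcc1, a core scaffold subunit, had 31.1 and 32.3 CPM in KMS and 47.6 and 64.9 CPM in KM (log2 difference -0.83 ± 0.21 SE, edgeR adjusted p = 0.0991). Arid1a, the DNA-binding subunit of the related BAF complex, had 58.8 and 50.5 CPM in KMS and 79.5 and 90.7 CPM in KM. Pbrm1 at -0.64 thus lay on the same side as most genes of this list, which includes subunits of remodellers other than PBAF. Bap1 lay on the other side from most of its own list, as 8 of 10 partner genes of BAP1 were below 0, with a median of -0.22. However, 0 of these 10 had an unadjusted p under 0.05 with edgeR. For 5 of the 10 both KMS libraries were below both KM libraries and for 1 above, beside 31.3% and 29.0% of all genes. Ogt, which attaches N-acetylglucosamine to BAP1's partner HCFC1, had 202 and 186 CPM in KMS and 245 and 327 CPM in KM. Asxl1, the cofactor that activates BAP1, had 36.0 and 30.0 CPM in KMS and 40.8 and 50.6 CPM in KM, and 0 of the 10 passed.

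The TSC genes were the least even between the KMS libraries. Tsc1, which encodes the scaffold hamartin, had 68.1 and 49.6 CPM in KMS and 42.5 and 47.3 CPM in KM. Tsc2, which encodes tuberin, the subunit that acts on RHEB, had 97.1 and 62.7 CPM in KMS and 81.7 and 77.7 CPM in KM. Both genes were higher in KMS replicate 1 than in KMS replicate 2, and the Tsc2 values of KMS lay on either side of those of KM. The log2 difference was 0.39 ± 0.21 for Tsc1 (SE, edgeR adjusted p = 0.285) and 0.00 ± 0.24 for Tsc2 (SE, edgeR adjusted p = 0.993). As folds, the 95% intervals were 0.921 to 1.86 for Tsc1 and 0.665 to 1.51 for Tsc2. The log2 ratio between the female and between the male libraries was 0.67 and 0.07 for Tsc1, and 0.25 and -0.31 for Tsc2.

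The count ratio of Tsc1 to Tsc2 was closer between the KMS libraries than either level, at 0.701 and 0.791 in KMS and 0.520 and 0.609 in KM. The groups of this ratio did not overlap, as was so for most pairs of members, and it was not tested. The last 693 bases of Tsc2 overlap exons of Pkd1, the polycystic kidney disease gene on the opposite strand, so that reads there cannot be told apart unless counting used strand. Pkd1 had 56.9 and 47.7 CPM in KMS and 39.0 and 39.4 CPM in KM. At the other end, Nthl1, a DNA glycosylase gene, starts 50 bases from Tsc2 on the opposite strand and had 4.86 and 3.64 CPM in KMS and 4.80 and 4.16 CPM in KM. Of the 3 further genes of this arm 0 passed. Rhebl1, a RHEB relative, had 4.03 and 5.22 CPM in KMS and 5.35 and 6.55 CPM in KM, and Tbc1d7, the third subunit of the TSC complex, had 8.79 and 10.6 CPM in KMS and 9.18 and 7.84 CPM in KM.

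Flcn had the smallest p of the 8 genes. It had 537 and 404 counts in KMS and 615 and 574 in KM, which is 55.5 and 49.1 CPM in KMS and 33.2 and 35.1 CPM in KM. Both KMS libraries were above both KM libraries. The fold was 1.53 with a 95% interval of 1.15 to 2.04 (log2 difference 0.61 ± 0.17 SE, edgeR adjusted p = 0.106). The log2 ratio was 0.73 between the female libraries and 0.48 between the male ones, and the difference without KM replicate 2 was 0.66. Flcn to Pbrm1 gave count ratios of 1.06 and 0.875 in KMS and 0.447 and 0.371 in KM. Gm16062, an antisense gene, starts 64 bases from Flcn on the opposite strand. It had only 7 and 5 counts in KMS and 9 and 9 in KM, which is 0.724 and 0.607 CPM in KMS and 0.486 and 0.551 CPM in KM.

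FLCN works with FNIP1 and FNIP2 and with the Rag GTPases and their anchor on the lysosome, the Ragulator. Of the other 12 genes of this list 0 passed, 9 were above 0, beside 49.3% of all genes, and the median log2 difference was 0.13. Lamtor5, a Ragulator subunit, had 86.7 and 90.3 CPM in KMS and 48.7 and 50.5 CPM in KM (log2 difference 0.84 ± 0.16 SE, edgeR adjusted p = 0.0823). Lamtor4, another subunit, had 54.2 and 69.8 CPM in KMS and 34.9 and 29.6 CPM in KM. The GATOR complexes and amino acid sensors upstream held 0 passes in 16 genes, with a median of 0.20 and 12 above 0. Both KMS libraries were above both KM libraries for 10 of the 16 and below for 2, beside 29.0% and 31.3% of all genes. Sec13, shared by GATOR2 and the COPII coat, had 79.5 and 96.1 CPM in KMS and 52.2 and 46.8 CPM in KM. Nprl2, a GATOR1 subunit that restrains the Rags, had 31.9 and 34.0 CPM in KMS and 22.5 and 19.8 CPM in KM.

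FLCN also keeps the MiT/TFE transcription factors out of the nucleus. Of 11 genes of these factors and their targets 0 passed with edgeR, with a median log2 difference of 0.07. Gpnmb, a lysosomal glycoprotein gene induced when FLCN is lost, had 3 and 1 counts in KMS and 256 and 813 in KM. Per unit of depth it was 137 times as high in KM as in KMS, with a 95% interval of 53.4 to 505 for counting error only (edgeR adjusted p = 0.0662). Without KM replicate 2, which held most of these counts, the ratio was 61.8 with an interval of 23.9 to 229. DESeq2 called Gpnmb lower in KMS (adjusted p = 1.46e-11), and so did edgeR without KM replicate 2 (adjusted p = 0.00183). Macrophages express Gpnmb as well. The summed CPM of 9 of the 10 listed leukocyte markers was 244 and 143 in KMS and 318 and 562 in KM. The 8 of them that were tested were all below 0, with a median log2 difference of -1.21, and their part in the Gpnmb values was not tested. Sqstm1, an autophagy receptor gene and TFEB target, had 410 and 541 CPM in KMS and 310 and 307 CPM in KM.

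Mtor had the lowest counts of the 8 genes, 123 and 120 in KMS and 154 and 156 in KM. That is 12.7 and 14.6 CPM in KMS and 8.31 and 9.55 CPM in KM, and the groups did not overlap. The fold was 1.53 with a 95% interval of 1.005 to 2.32 (log2 difference 0.61 ± 0.25 SE, edgeR adjusted p = 0.186). The log2 ratio was 0.59 between the female libraries and 0.58 between the male ones. Angptl7 and 2 small nuclear RNA genes lie within introns of Mtor and share no exonic base with it. Angptl7 had 17 and 49 counts in KMS and 37 and 75 in KM.

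Of the other 10 subunits and assembly factors of the mTOR complexes, 0 passed, with a median log2 difference of 0.15. Of these 10, 6 were above 0, beside 49.3% of all genes. Prr5, a subunit of mTOR complex 2, had 37.1 and 46.5 CPM in KMS and 24.2 and 20.4 CPM in KM (log2 difference 0.91 ± 0.21 SE, edgeR adjusted p = 0.0922). Telo2, which helps to assemble mTOR and related kinases, had 13.9 and 6.56 CPM in KMS and 17.0 and 17.6 CPM in KM. Substrates of mTOR complex 1 and its S6 kinase had a median of -0.10 over 12 genes, 0 of which passed. Pdcd4, a translation inhibitor that S6 kinase marks for destruction, had 33.8 and 32.9 CPM in KMS and 53.0 and 64.1 CPM in KM (log2 difference -0.81 ± 0.18 SE, edgeR adjusted p = 0.089). Lpin1, a phosphatidate phosphatase gene, had 61.4 and 68.4 CPM in KMS and 39.6 and 42.4 CPM in KM.

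The branches that feed into the TSC complex held 0 passes. In the PI3K and AKT list the median log2 difference was 0.24 over 12 genes. Pik3r1, the regulatory subunit of PI3K, had 46.8 and 36.0 CPM in KMS and 60.4 and 75.4 CPM in KM, while Pik3ca, the catalytic subunit, had 97.0 and 139 CPM in KMS and 88.1 and 74.3 CPM in KM. The LKB1 and AMPK list had a median of 0.14 over 12 genes. Stradb, a pseudokinase that binds LKB1, had 40.8 and 45.9 CPM in KMS and 26.5 and 24.3 CPM in KM, and Prkaa1, a catalytic subunit of AMPK, had 31.7 and 27.5 CPM in KMS and 45.3 and 54.5 CPM in KM.

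Nf2 had the highest CPM of the 8 genes in KMS, and its mean in KM, 83.6 CPM, was just under the 84.5 CPM of Pbrm1. It had 1034 and 913 counts in KMS and 1629 and 1294 in KM, which is 107 and 111 CPM in KMS and 87.9 and 79.2 CPM in KM. Both KMS libraries were above both KM libraries. The fold was 1.30 with a 95% interval of 0.973 to 1.75 (log2 difference 0.38 ± 0.17 SE, edgeR adjusted p = 0.222), and the log2 ratio was 0.28 between female and 0.48 between male libraries. The other 12 genes of the Hippo arm had a median of -0.22, and 0 passed. Of these 12, 8 were below 0, beside 7608 of all 15002 genes tested. Both KMS libraries were below both KM libraries for 7 of the 12 and above for 2, beside 31.3% and 29.0% of all genes. Wwtr1, which encodes TAZ, a coactivator that the Hippo kinases inhibit, had 61.1 and 60.9 CPM in KMS and 94.0 and 88.2 CPM in KM (log2 difference -0.58 ± 0.16 SE, edgeR adjusted p = 0.106). Lats1, a Hippo kinase gene, had 39.6 and 37.0 CPM in KMS and 48.7 and 50.5 CPM in KM.

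**Figure D3:**
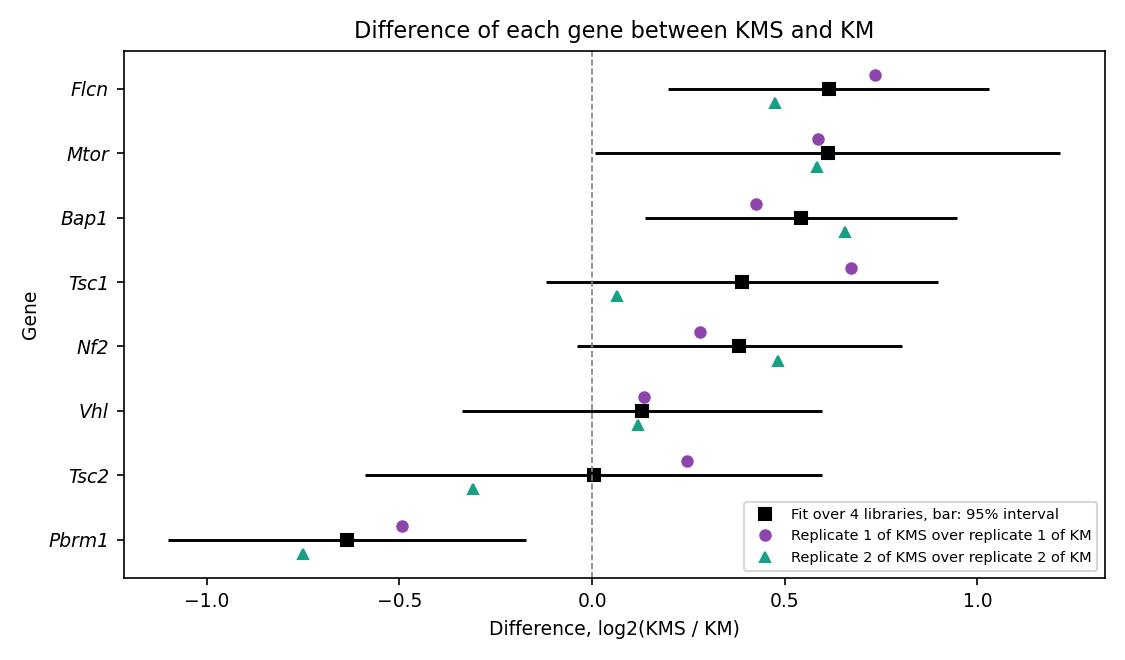
Difference of each gene as log2(KMS / KM) (x axis); squares and bars are the edgeR estimate and its 95% interval over 4 libraries, circles and triangles the ratios within replicates of equal number. The intervals of Flcn, Mtor and Bap1 lie above 0 and that of Pbrm1 below 0 before adjustment for 15002 tests, and Tsc2 alone has library ratios of opposite sign.

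Further genes lost or mutated in kidney cancer gave 0 passes in 15, with a median log2 difference of 0.04. Sdhd, a subunit of succinate dehydrogenase, had 351 and 393 CPM in KMS and 203 and 152 CPM in KM (log2 difference 1.07 ± 0.24 SE, edgeR adjusted p = 0.0911). Trp53 had 28.7 and 24.9 CPM in KMS and 43.4 and 55.7 CPM in KM (log2 difference -0.89 ± 0.20 SE, edgeR adjusted p = 0.0922). Over the 158 tested genes of all 14 pathway lists, members left out, edgeR called 0, and 24 were higher and 14 lower at an unadjusted p under 0.05, beside 12.2% and 14.1% of all genes. Their median was 0.04, with 85 above 0, beside 49.3% of all genes. DESeq2 called 14 of them higher and 7 lower in KMS, beside 11.8% of all genes called in either direction.

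**Figure D4:**
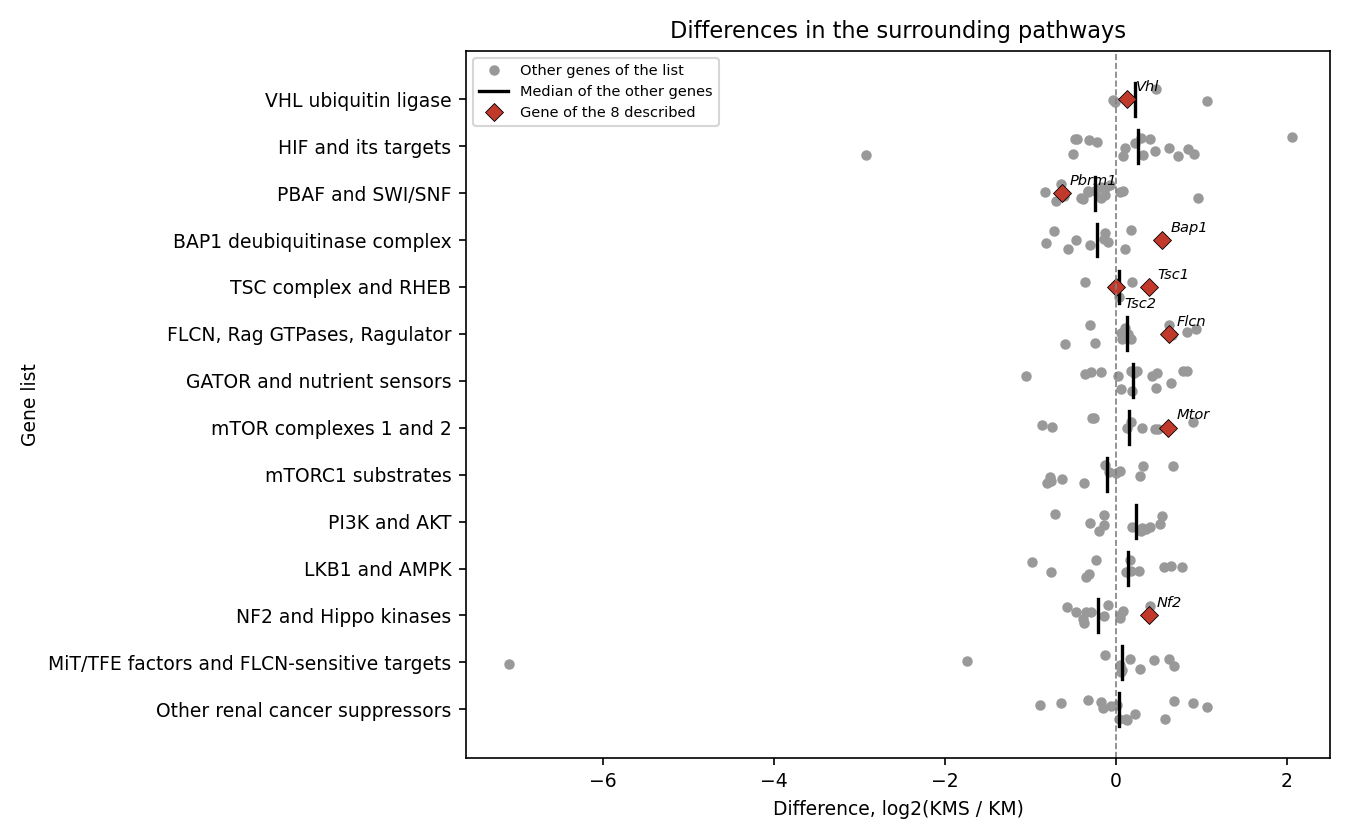
Difference as log2(KMS / KM) (x axis) of each tested gene in the 14 pathway lists (y axis); grey points are list genes, black bars their medians, and red diamonds the described genes. Bap1 and Nf2 lie to the right of medians below 0, Pbrm1 lies to the left with its list, and the far left point is Gpnmb.

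Levels were compared between genes as CPM per kilobase of exon, over the union of exons in GENCODE M21. In KMS the order was Nf2 at 15.96, Bap1 at 15.93, Flcn at 12.1, Tsc2 at 8.31, Vhl at 6.71, Pbrm1 at 6.15, Tsc1 at 4.97 and Mtor at 1.35 CPM per kilobase. The libraries of Nf2 and Bap1 overlapped, as did those of Tsc2 and Vhl, and the other neighbours in the order were apart. In KM the order was Nf2 at 12.2, Bap1 at 10.9, Pbrm1 at 9.55, Tsc2 at 8.29, Flcn at 7.91, Vhl at 6.13, Tsc1 at 3.80 and Mtor at 0.884 CPM per kilobase. There, each neighbour from Nf2 down to Flcn overlapped the next, and the lower ones were apart. Pbrm1 stood in place 6 in KMS and 3 in KM, and Flcn in place 3 in KMS and 5 in KM. Mtor was lowest in both groups. Among its partners in the same complexes, Rptor, the defining subunit of mTOR complex 1, had 0.627 in KMS and 0.577 in KM, Rictor, that of complex 2, had 2.18 in KMS and 2.61 in KM, and Mlst8, common to both, had 3.65 in KMS and 2.67 in KM, all in CPM per kilobase.

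For each member, the gene of the pathway lists with the most similar course over the 4 libraries was found among 158 genes, as the Euclidean distance between log2 CPM values centred on each gene's mean. Vhl lay closest to Rragc, a Rag GTPase gene, at a distance of 0.05. Pbrm1 lay closest to Eif4ebp1, which encodes the translation repressor 4E-BP1, at 0.07, and Bap1 to Cab39l, a scaffold gene of the LKB1 complex, at 0.08. Nf2 lay closest to Wwc2, a gene of the KIBRA family, at 0.06. Tsc1 lay closest to the autophagy kinase gene Ulk1 at 0.13, Tsc2 to Rragd at 0.10, Flcn to Kptn of the KICSTOR complex at 0.15, and Mtor to Lpin1 at 0.10. The median distance of a member to the 158 genes ran from 0.46 to 0.80. With 4 libraries these are descriptions of likeness and were not tested.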

How the data were processed

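RNA was sequenced in 4 libraries of renal tubular epithelial cells, 2 per genotype, after poly(A) selection with a directional kit and as read pairs, per the labels' protocols. Tools listed in the submitters' processing notes are HISAT2, StringTie, cutadapt 1.9.1, Trimmomatic 0.35, FastQC and MACS2 2.1.1, with the build GRCm38 (mm10). No source used here names the program that counted reads. The authors deposited raw counts per gene. Their log2 fold change and p-values, per the file headers, were copied for the members, and no source used here names the test behind them. A second deposited table that repeats count ratios was not used.

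The test on counts was that of edgeR 4.0.16 under R 4.3.3 (TMM factors, quasi-likelihood F test, genotype as the only term) after filterByExpr (minimum count 10, minimum total 15), which left 15002 genes and all 8 members. P-values were adjusted over all genes tested (Benjamini-Hochberg), and a gene passed at an adjusted p under 0.05. Differences are log2(KMS / KM), with the SE and 95% interval taken from the F statistic. CPM use TMM-adjusted totals, and ratios within a pair were taken after adding 0.5 CPM. Alternatives were DESeq2 1.42.0, limma-voom (limma 3.58.1), other scalings, filters and thresholds, a replicate block and each library left out. DESeq2 without KM replicate 2, the Gpnmb ratio without it and the marker sum without Kap were added after the data were seen. The fit was tested on simulated data.

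The members, lists and rules were chosen with earlier results of these data known. From each pathway list, genes that passed, or else the 2 of smallest p, are named, and 1 listed gene is not reported here. Genes on the opposite strand were taken when they overlapped a member or started within 1000 bases of its start. Gene positions are from GENCODE M21 and promoter windows from RefSeq GRCm38.p6.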

Additional observations from a re-analysis of the deposited data

How the results depend on the processing

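No member passed under any of the 16 settings tried, nor with DESeq2 without KM replicate 2. Of the 8 members, 7 kept the sign of their difference under each setting, and their log2 differences ranged from -0.79 to -0.45 for Pbrm1, 0.49 to 0.72 for Flcn, 0.42 to 0.65 for Bap1, 0.48 to 0.74 for Mtor, 0.26 to 0.47 for Nf2, 0.18 to 0.62 for Tsc1 and 0.01 to 0.16 for Vhl. Tsc2, at 0.00, was -0.059 with upper-quartile factors, -0.11 with library totals, -0.028 with limma-voom, -0.029 with the replicate block, -0.021 with the replicate block in DESeq2, -0.025 with DESeq2 without KM replicate 2, and -0.31 to 0.30 with a library left out. Library totals moved the median of all genes to -0.13, from -0.01, and moved the members by a like amount. The number of listed pathway genes that passed, 0 with edgeR, was 21 with DESeq2, 1 with robust estimation (Tceb2), 2 with the replicate block (Tceb2 and Gpnmb), 5 with the replicate block in DESeq2 (those 2, Car12, Ndrg1 and Sdhd), 16 at an adjusted p under 0.1, 0 to 11 with a library left out (11 without KM replicate 1) and 1 with DESeq2 without KM replicate 2 (Gpnmb). The number of all genes that passed, 5 with edgeR, was 3 with library totals, 3 with a mean of at least 1 CPM, 1 with limma-voom, 233 with robust estimation, 815 with the replicate block, 888 with the replicate block in DESeq2, 1767 with DESeq2, 1216 at an adjusted p under 0.1, 184 with DESeq2 without KM replicate 2, and 0 to 1786 with a library left out. The causes were not tested. Where a library was left out, the lone sample of a group is assumed to vary like the other group. The main test left the replicate number out, although it equals sex in both genotypes. The deviations of libraries of equal replicate number correlated at 0.0649 between the genotypes without sex-linked genes. That correlation alone does not justify the choice, and with the replicate block 815 genes passed instead of 5, none of them a member. Ratios between libraries of like sex are descriptions. Levels per kilobase were higher over the longest transcript than over the union of exons, and the order of Vhl, Pbrm1 and Tsc1 in KMS and of Pbrm1 and Tsc2 in KM then differed, with Mtor lowest and Nf2 highest under both. With 2 libraries per group, the 95% intervals of the members span a fold of 1.75 to 2.31 from their lower to their upper end.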
